A study of Mus musculus with 12 samples.

Results

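The 8 genes described here, Acta2, Tagln, Cnn1, Cnn2, Myl9, Tpm1, Tpm2 and Actg2, encode proteins of the smooth-muscle type of actin cytoskeleton. They were chosen by name from the 55401 genes in the count tables of TPS and EPS cells. In smooth muscle and in activated fibroblasts, actin filaments carry tropomyosin and calponin along their length, and myosin pulls on them once its regulatory light chain is phosphorylated. Many of these genes are known targets of SRF, a transcription factor that binds the CArG box and is driven by actin-sensing coactivators, and they are also known to respond to TGF-beta. Acta2 and Tagln are classical markers of smooth muscle and of myofibroblasts, while Cnn2, Tpm1 and Tpm2 are also used in many other cell types.

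TPS cells are mouse stem cells with totipotent-like features, and EPS cells are mouse stem cells in the extended pluripotent state. According to the labels, 3 TPS lines were kept on feeder cells in VCED medium, a name the study's methods do not use. Those methods keep TPS cells in CPEC medium, with CD1530 (an RARγ agonist), VPA (a histone deacetylase inhibitor), EPZ004777 (a DOT1L inhibitor) and the GSK3 inhibitor CHIR. The labels put the 3 EPS lines on feeder cells in LCDM medium. Each line was sequenced as 2 technical replicates, which gave 12 libraries of polyadenylated RNA, and the line, with the counts of both added, served as the replicate. The feeders named for TPS cells were inactivated mouse embryonic fibroblasts, a cell type that itself makes contractile proteins, and nothing in the labels says that feeder cells were removed before RNA extraction. The sources used here give neither the origin of each sequenced TPS line nor any link between TPS and EPS lines that share a number.

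Libraries held 14652746 to 21821707 counts in TPS cells and 13676051 to 20077288 in EPS cells. The pluripotency genes Pou5f1, Nanog, Sox2, Zfp42 and Esrrb were read in every line, and their sum ranged from 1500 to 1850 CPM (counts scaled to library totals adjusted with TMM factors) in TPS lines and 2550 to 3200 CPM in EPS lines. A list of 17 fibroblast genes was also read in every line, except for Fap, which had 0 counts in EPS line 1. The sum of the list was 3710 to 6920 CPM in TPS lines and 364 to 1540 CPM in EPS lines. In bulk RNA, more cells of a type and more RNA per cell cannot be told apart.

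Promoter sequences were available for 6 of the 8 genes (RefSeq, GRCm38.p6), and the 4 that held a CArG-like match in the 250 bases before the RefSeq start are shown, since this box is the known binding site of SRF in contractile genes. Capitals mark the CArG box (10 bases, at most 1 departure allowed) and the MCAT element bound by TEAD factors (CATTCC, searched on both strands, so that GGAATG is a match on the other strand). No capital stretches overlapped.
Acta2, chr19:34255374-34255623, minus strand: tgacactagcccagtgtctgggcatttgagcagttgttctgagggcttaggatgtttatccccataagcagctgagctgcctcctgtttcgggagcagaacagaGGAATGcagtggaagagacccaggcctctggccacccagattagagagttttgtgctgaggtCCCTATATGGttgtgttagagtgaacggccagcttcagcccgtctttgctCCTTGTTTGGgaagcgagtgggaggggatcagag
Cnn2, chr10:79988350-79988599, plus strand: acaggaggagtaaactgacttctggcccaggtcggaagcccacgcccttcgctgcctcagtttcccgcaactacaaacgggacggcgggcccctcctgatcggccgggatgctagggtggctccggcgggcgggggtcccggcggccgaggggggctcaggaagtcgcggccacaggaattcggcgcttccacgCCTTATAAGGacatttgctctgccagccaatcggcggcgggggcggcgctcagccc
Myl9, chr2:156775214-156775463, plus strand: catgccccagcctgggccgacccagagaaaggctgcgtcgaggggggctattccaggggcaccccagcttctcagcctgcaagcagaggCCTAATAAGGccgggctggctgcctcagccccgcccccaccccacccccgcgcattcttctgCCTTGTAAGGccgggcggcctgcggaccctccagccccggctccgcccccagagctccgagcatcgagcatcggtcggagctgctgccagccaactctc
Tpm1, chr9:67049214-67049463, minus strand: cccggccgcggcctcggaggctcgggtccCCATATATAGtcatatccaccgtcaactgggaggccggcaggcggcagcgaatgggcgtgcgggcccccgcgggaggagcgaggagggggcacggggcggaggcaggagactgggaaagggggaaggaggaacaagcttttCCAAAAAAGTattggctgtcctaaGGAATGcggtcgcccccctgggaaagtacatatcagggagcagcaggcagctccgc

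The Acta2 window held CArG-like matches 84 to 75 and 34 to 25 bases before the start and an MCAT match 146 to 141 bases before it. The Cnn2 window held an exact CArG box 56 to 47 bases before the start. Myl9 had an exact box 161 to 152 bases and a match with 1 departure 99 to 90 bases before the start. Tpm1 had CArG-like matches at 221 to 212 and 80 to 71 bases and an MCAT match at 56 to 51 bases. No match was found in the windows of Cnn1 and Tpm2. Over 32817 promoter windows of the same length, 1.47% held an exact CArG box, 18.6% a match with at most 1 departure and 12.6% an MCAT element. These matches describe the letters of the windows only, and no binding was measured.

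The first question was whether the contractile genes differed between TPS and EPS lines. Of the 8 genes, 7 were higher in TPS lines and none was lower (edgeR's quasi-likelihood test, adjusted p-value under 0.05). Among all 17468 genes tested, 14.4% were higher in TPS lines and 7.34% were lower. Tagln had too few counts to be tested, and Actg2 passed the filter on low counts through its TPS lines alone, so that it had to differ. Over the 7 tested members the median log2 fold change was 3.67 (2.99 over the 6 without Actg2), against -0.00378 over all tested genes. In 7 of 8 members the lowest TPS line exceeded the highest EPS line, which held for 23.6% of all tested genes. The p-values measure the spread between lines, and with 3 lines against 3 an exact permutation of single values cannot separate the groups at the 0.05 level.

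**Figure D1:**
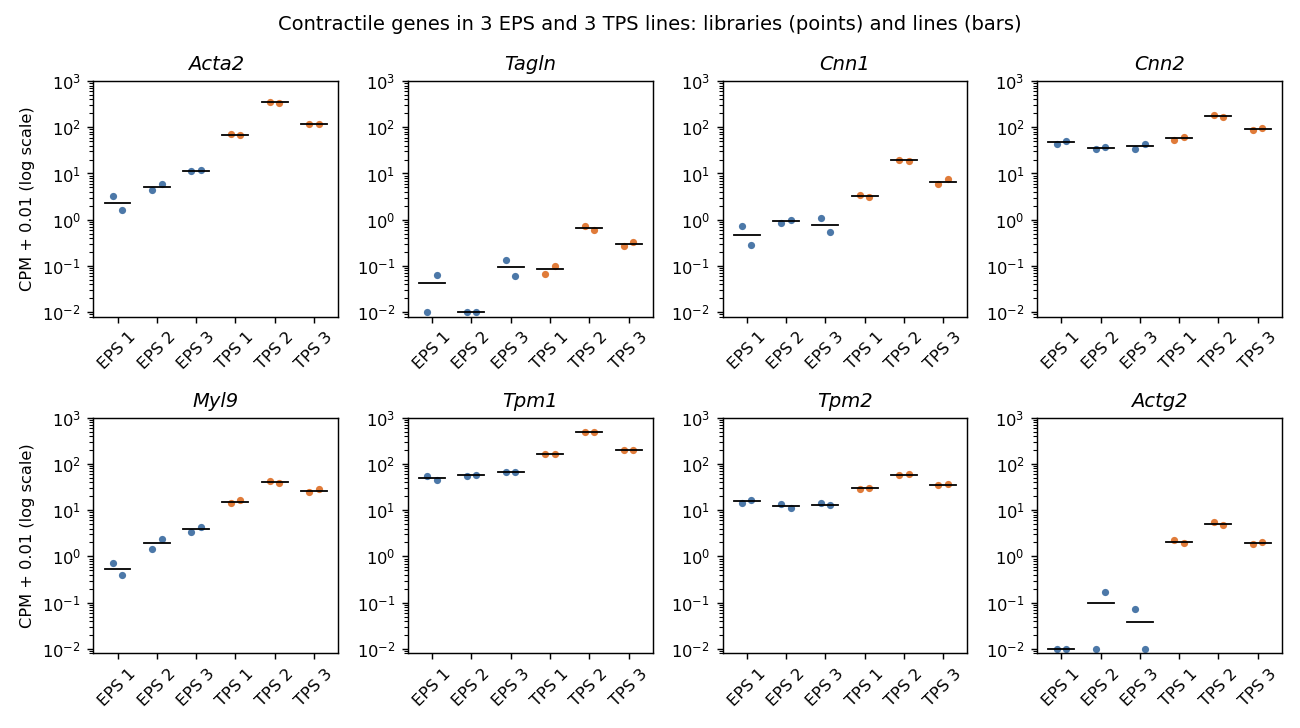
Level of each contractile gene (CPM + 0.01, log axis) in 3 EPS lines (blue) and 3 TPS lines (orange). Points are the 2 technical replicates and bars the level of the line. TPS line 2 is the highest line in all 8 panels, and Tagln stays under 1 CPM in every line.

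The actins changed most. Acta2, the smooth muscle alpha-actin (chromosome 19, 34241090 to 34255590, minus strand), was read at 68.3, 346 and 116 CPM in TPS lines 1, 2 and 3 and at 2.28, 5.21 and 11.4 CPM in EPS lines 1, 2 and 3. The lowest TPS line thus lay above the highest EPS line, but both groups were uneven, with TPS line 2 at 5.06 times TPS line 1 and EPS line 3 at 5.01 times EPS line 1. The means were 177 ± 148 CPM (SD, n = 3 lines) and 6.31 ± 4.67 CPM (SD, n = 3 lines), and the log2 fold change was 4.80 (SE 0.80, edgeR adjusted p = 0.00775). With 1 EPS line left out it ranged from 4.38 (without EPS line 1) to 5.54 (without EPS line 3).

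Actg2, the enteric gamma-actin of gut and bladder muscle (chromosome 6, 83512905 to 83536265, minus strand), was low everywhere. It was read at 2.05, 5.10 and 1.90 CPM in TPS lines 1, 2 and 3, from 82, 197 and 60 counts, and had 0, 3 and 1 counts in EPS lines 1, 2 and 3. Summed over the lines these are 339 against 4 counts. Relative to library totals adjusted with TMM factors their ratio was 76.8, with a 95% exact interval of 29.7 to 283 that covers counting error only. The fitted log2 fold change was 6.12 (SE 0.84, edgeR adjusted p = 0.00424), and it rests on 4 EPS counts.

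The tropomyosins, which wind along the actin filament and set myosin's access to it, changed less. Tpm1 (chromosome 9, 67022590 to 67049406, minus strand) was read at 164, 493 and 200 CPM in TPS lines 1, 2 and 3 and at 49.2, 57.0 and 66.9 CPM in EPS lines 1, 2 and 3. Here the EPS lines were close to each other, and TPS line 2 stood well above the other TPS lines. The log2 fold change was 2.31 (SE 0.41, edgeR adjusted p = 0.00926). Tpm2 (chromosome 4, 43514711 to 43523765, minus strand) stood at 30.0, 58.6 and 35.3 CPM in the TPS lines and at 15.7, 12.5 and 13.2 CPM in the EPS lines, in the same order of lines. All TPS lines were above all EPS lines, and the log2 fold change was 1.58 (SE 0.27, edgeR adjusted p = 0.00821).

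The calponins, which bind actin and damp myosin's activity, differed from each other. Cnn1, the form of differentiated smooth muscle (chromosome 9, 22099216 to 22109630, plus strand), was at 3.20, 19.1 and 6.64 CPM in TPS lines 1, 2 and 3 and at 0.457, 0.941 and 0.768 CPM in EPS lines 1, 2 and 3. The groups did not overlap and the EPS values rest on 14 to 32 counts a line. Its log2 fold change was 3.73 (SE 0.70, edgeR adjusted p = 0.0112). Cnn2, the form found in many non-muscle cells (chromosome 10, 79988584 to 79996062, plus strand), was at 57.4, 173 and 90.3 CPM in the TPS lines and at 47.3, 35.6 and 39.7 CPM in the EPS lines. TPS line 1 was here only slightly above EPS line 1. Its log2 fold change of 1.39 (SE 0.37, edgeR adjusted p = 0.0347) was the smallest among the tested members, and the call was lost in 5 of the 6 edgeR fits that left out 1 line, those without TPS line 2 or 3 and those without EPS line 1, 2 or 3 (edgeR adjusted p-values 0.0523 to 0.104).

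Myl9, the regulatory light chain of smooth muscle myosin (chromosome 2, 156775420 to 156781658, plus strand), was at 15.4, 40.2 and 26.4 CPM in TPS lines 1, 2 and 3 and at 0.522, 1.97 and 3.92 CPM in EPS lines 1, 2 and 3. Every TPS line was above every EPS line. The log2 fold change was 3.67 (SE 0.69, edgeR adjusted p = 0.0110). With 1 EPS line left out it ranged from 3.18 (without EPS line 1) to 4.43 (without EPS line 3). Among the EPS lines Myl9 spanned 7.52-fold from line 1 to line 3, more than Acta2, while Tpm1 spanned 1.36-fold.

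Tagln, which encodes the actin-bundling protein transgelin or SM22 alpha (chromosome 9, 45929619 to 45936058, minus strand), stood apart from the other members because it was nearly absent. It had 3, 25 and 9 counts in TPS lines 1, 2 and 3 and 1, 0 and 3 counts in EPS lines 1, 2 and 3, which is at most 0.647 CPM. The groups overlapped, with summed counts of 37 and 4. Relative to library totals adjusted with TMM factors their ratio was 8.38, with a 95% exact interval of 3.01 to 32.4. This interval covers counting error only and not the spread between lines, and 25 of the 37 TPS counts came from TPS line 2. In the 6 alternatives that could test it, the log2 fold change was 2.39 to 4.14 with adjusted p-values of 0.055 to 0.186 from edgeR or DESeq2. In those that left out 1 line, Tagln passed the filter on low counts through its TPS lines alone, so that it had to differ there. Of the 1988 exon bases of Tagln in GENCODE M21, 1349 (67.9%) lie over exons of genes on the opposite strand, 1241 of them over the antisense gene Gm48529 and 108 over Pcsk7. Gm48529 had 2 to 11 counts a line and Pcsk7 399 to 667. The library protocol describes no strand marking and the counting rule is not given in the sources used here, so whether reads of Tagln were set aside as ambiguous was not tested. Exons of the other members overlapped no other gene, and no member had a near-identical transcript elsewhere (at least 95% identity over at least 50% of its length).

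Per kilobase of exon, the order of levels differed between the cell types. In TPS lines Acta2 came first at 80.4 ± 67.6 CPM per kilobase (SD, n = 3 lines), followed by Tpm1 (44.1), Cnn2 (43.4), Myl9 (23.5), Tpm2 (14.2), Cnn1 (3.52), Actg2 (1.94) and Tagln (0.169). The ranges of neighbours in this order overlapped except between Tpm2 and Cnn1 and between Actg2 and Tagln. In EPS lines Cnn2 came first at 16.6 ± 2.41 CPM per kilobase (SD, n = 3 lines), followed by Tpm1 (8.90), Tpm2 (4.74), Acta2 (2.87), Myl9 (1.84), Cnn1 (0.264), Actg2 (0.025) and Tagln (0.0198). There the ranges of Tpm2 and Acta2, of Acta2 and Myl9, and of Actg2 and Tagln overlapped. With the longest transcript as the length, Tpm1, whose exons span many isoforms, came first in both cell types.

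The second question was how the contractile genes varied from line to line. TPS line 2 was the highest TPS line for 8 of 8 members, and TPS line 1 was the lowest for 7 of 8, with Actg2 lowest in TPS line 3. TPS line 2 was the highest TPS line for 35.1% of all tested genes. The level in TPS line 2 was 1.95 to 8.64 times that in TPS line 1, with a median of 3.01. In 5 of 8 members TPS line 2 was at least 2-fold above both other TPS lines, which was so for 2.3% of all tested genes. Technical replicates of a TPS line differed by at most 1.03-fold to 1.27-fold in the 7 tested members and by 1.53-fold in Tagln. For every member this was less than the distance between TPS lines 2 and 1, while TPS lines 1 and 3 of Actg2 lay closer together than its technical replicates. In EPS lines, with fewer counts for most members, technical replicates differed by at most 1.18-fold in Tpm1 to 2.61-fold in Cnn1. Tagln differed by 2.42-fold there, and Actg2 gave no ratio. Technical replicates give the technical spread only.

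Without TPS line 2, 6 members were still higher in TPS lines by edgeR, in a fit that called 12.5% of 17891 tested genes higher. Of these 6, Actg2 had to differ, for the reason given above. Their log2 fold changes were then 3.86 for Acta2, 5.51 for Actg2, 2.75 for Cnn1, 3.28 for Myl9, 1.66 for Tpm1 and 1.24 for Tpm2. Cnn2 lost its call, at 0.85 (edgeR adjusted p = 0.0523). Each of these 7 values was smaller than with all lines.

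The third question was how these levels stood beside RNA of fibroblasts, the feeder cell type. Of 17 fibroblast genes, 11 were higher in TPS lines and none was lower (edgeR), against 14.4% and 7.34% of all tested genes. All 17 log2 fold changes were positive, and their median was 2.07. Among the 11, Fap reached the cutoff of the filter on low counts in 3 TPS lines and 1 EPS line, and so passed through its TPS lines. In 14 of the 17 every TPS line was above every EPS line, which held for 23.6% of all tested genes. Col1a1, the main collagen I chain, was at 2360, 1740 and 1380 CPM in TPS lines 1, 2 and 3 and at 79.4, 433 and 378 CPM in EPS lines 1, 2 and 3. Col1a2 and the collagen-crosslinking enzyme Lox had log2 fold changes of 2.07 (edgeR adjusted p = 0.0246) and 2.07 (edgeR adjusted p = 0.0516). The count of fibroblast genes called was 3 without EPS line 2, 4 without TPS line 1 and 5 without TPS line 3. It was 7 without EPS line 1 or without EPS line 3, and 12 without TPS line 2. Over all genes, these fits called 1617 to 2234 higher, of 17784 to 18221 tested.

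Within the TPS lines the fibroblast genes ran opposite to the contractile genes. TPS line 1, lowest for most contractile genes, was the highest TPS line for 15 of 17 fibroblast genes, which was so for 36.2% of all tested genes, and TPS line 2 was the lowest for 12 of 17. The fibroblast list summed to 6920, 3710 and 4070 CPM in TPS lines 1, 2 and 3, while the 8 contractile genes summed to 341, 1140 and 477 CPM. The level of a fibroblast gene in TPS line 1 was 0.538 to 17.5 times that in TPS line 2, with a median of 2.52. Twist1, at 7.99, 14.9 and 12.6 CPM, was the one fibroblast gene that was highest in TPS line 2.

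**Figure D2:**
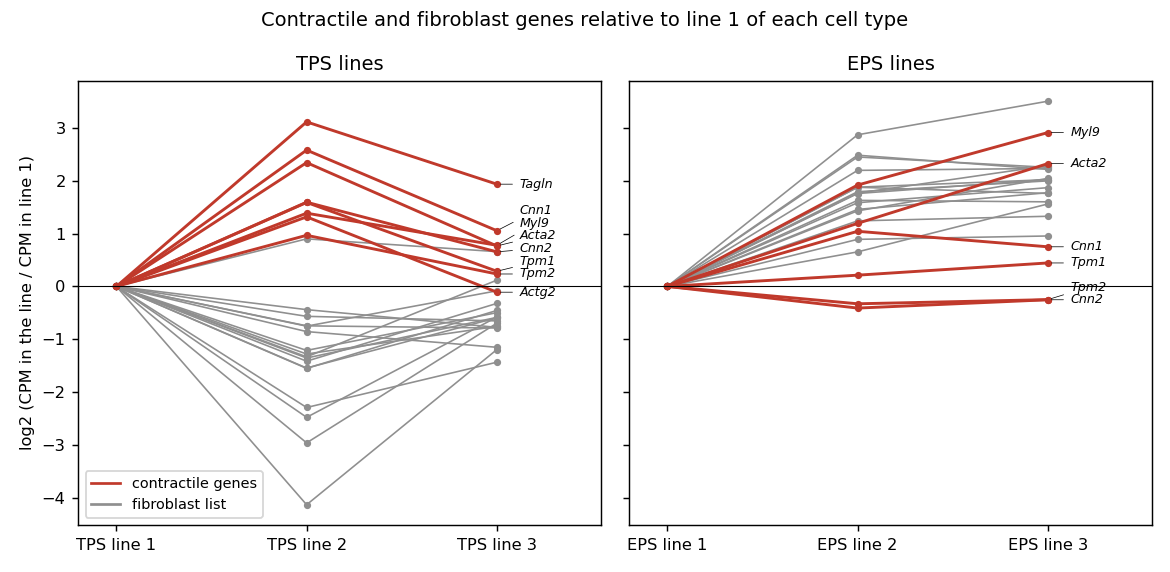
Level of contractile genes (red) and fibroblast genes (grey) in each line, as log2 of the ratio to line 1 of the same cell type, for TPS lines (left) and EPS lines (right). Genes with 0 counts in a line of the panel (Actg2, Tagln and Fap in EPS lines) are not drawn, and the lines have no order. In TPS line 2 all 8 contractile genes are above 0 and 16 of 17 fibroblast genes are below 0.

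In the EPS lines the members fell apart. EPS line 1 was the lowest EPS line for 17 of 17 fibroblast genes, whose sum was 364, 1490 and 1540 CPM in EPS lines 1, 2 and 3, so that line 3 was 4.22 times line 1. Acta2 and Myl9 moved the same way, with EPS line 3 at 5.01 and 7.52 times EPS line 1. Cnn2 and Tpm2 did not, with EPS line 3 at 0.839 and 0.845 times EPS line 1. Tpm1 and Cnn1 lay between, at 1.36 and 1.68 times. Technical replicates of an EPS line differed by up to 2.61-fold in Cnn1, 1.3-fold in Cnn2 and 1.2-fold in Tpm2. For these genes the distance between EPS lines 3 and 1 lay within the technical spread. For Acta2, Myl9 and Tpm1 it was larger than their technical differences of at most 1.94-fold, 1.87-fold and 1.18-fold.

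As a share of the fibroblast sum, Acta2 was 0.987%, 9.32% and 2.84% in TPS lines 1, 2 and 3 and 0.627%, 0.349% and 0.745% in EPS lines 1, 2 and 3. Every TPS line was above every EPS line on this scale, though TPS line 1 only slightly. Actg2 was also above in every TPS line, at 0.0296% to 0.137% against at most 0.00592%. For the other 6 members the shares of the groups overlapped. Cnn2, Tpm1 and Tpm2 had their highest or nearly highest shares in EPS line 1 (13.0%, 13.5% and 4.30%), where the fibroblast sum was lowest, and Myl9 had 0.222% to 1.08% in TPS lines and 0.132% to 0.256% in EPS lines.

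With the mean log2 level of the fibroblast list as a covariate in the edgeR fit, which leaves 3 residual degrees of freedom, none of the 7 tested members was called. All 7 kept a positive log2 fold change and 7 had an unadjusted p-value under 0.05 in that edgeR fit, as did 11.1% of all tested genes in the same direction. The edgeR adjusted p-values of the 7 were 0.0546 to 0.203. Of these 7, Actg2 passed the filter on low counts through its TPS lines alone, so that it had to differ. DESeq2 without the covariate called all 7 tested members (15.8% of 21795 genes with an adjusted p-value were higher in TPS lines). The log2 fold change was larger than without the covariate in 5 of 7 members, for example 2.28 against 1.39 for Cnn2 and 2.23 against 1.58 for Tpm2, and it was 4.73 against 4.80 for Acta2 and 2.94 against 3.67 for Myl9. Over all genes, this fit called 104 higher and 18 lower. The covariate was 5.65 to 7.06 in TPS lines and 2.93 to 4.98 in EPS lines, so it did not overlap between the groups, and its effect and that of the group cannot be fully told apart in this fit. The part of feeder RNA in the difference between the groups was not tested.

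**Figure D3:**
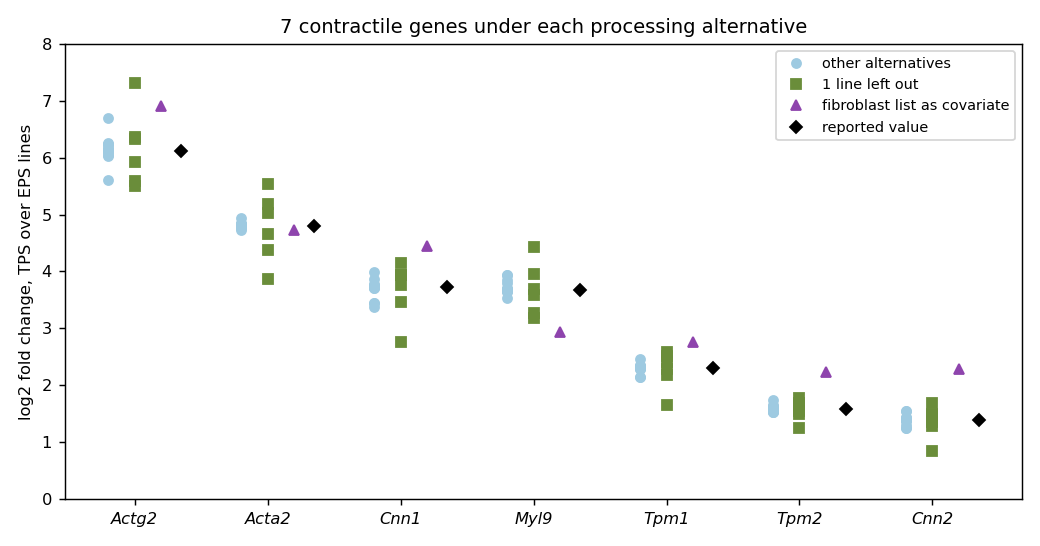
The log2 fold change (TPS over EPS lines) of the 7 tested contractile genes as reported (black), with 1 line left out (green), with the fibroblast list as a covariate (purple) and under the other alternatives (blue). All values are above 0, from 0.85 for Cnn2 without TPS line 2 to 7.32 for Actg2 without EPS line 2.

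The other genes of the contractile machinery were read from a list of 55 genes. This list also held 7 genes known to respond to TGF-beta or YAP, or to carry the TGF-beta signal. Of the 55 genes, 54 were tested, and 22 were higher in TPS lines, 3 lower and 29 not called by edgeR. Among all tested genes 14.4% were higher and 7.34% lower, and these shares also stand beside the counts of each group below. The 22 include Myh11, which passed the filter on low counts through its TPS lines alone, so that it had to differ. Among the 22, 6 came from the TGF-beta and YAP group. The median log2 fold change of the 54 tested genes was 0.41. The count of genes higher was 12 without EPS line 2.

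Among the other actins, the cytoplasmic Actb and Actg1, the actins of most cells, were at 1620 to 2870 CPM and 1640 to 2100 CPM over the 6 lines, and their log2 fold changes of 0.32 and 0.09 were not called (edgeR adjusted p = 0.250 and 0.708). The skeletal actin Acta1 and the cardiac actin Actc1, both made at low levels in immature smooth muscle, were higher in TPS lines. Acta1 was at 2.62, 16.6 and 2.35 CPM in TPS lines 1, 2 and 3 and at 0.424 to 0.483 CPM in EPS lines, with a log2 fold change of 3.99 (SE 0.85, edgeR adjusted p = 0.0166). Actc1 was at 0.0749, 51.2 and 4.13 CPM in TPS lines 1, 2 and 3 and at most 0.313 CPM in EPS lines. The groups overlapped and the log2 fold change of 7.14 (SE 2.10, edgeR adjusted p = 0.0470) had a wide error, with most of the TPS level in line 2, and 2 TPS lines and 1 EPS line reached the filter's cutoff.

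Of 5 paralogs of the thin filament genes, only Tpm4, a non-muscle tropomyosin, was called, with a log2 fold change of 0.67 (edgeR adjusted p = 0.0173). Tagln2, the transgelin of non-muscle cells, was at 120 to 194 CPM in TPS lines and 179 to 313 CPM in EPS lines, with a log2 fold change of -0.83 (edgeR adjusted p = 0.0600). Tagln3 and Cnn3 had log2 fold changes of 0.31 and -0.20 and were not called.

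Of 8 myosin chains, 3 were higher. Myh11, the heavy chain of differentiated smooth muscle, was at 1.65, 3.70 and 1.90 CPM in TPS lines 1, 2 and 3 and at 0.118 to 0.196 CPM in EPS lines, with a log2 fold change of 3.97 (SE 0.52, edgeR adjusted p = 0.00365). It had 6, 4 and 5 counts in EPS lines 1, 2 and 3 and, like Actg2, passed the filter through its TPS lines alone, so that it had to differ. The non-muscle heavy chain Myh10 was at 97.3, 219 and 123 CPM in TPS lines 1, 2 and 3, and the EPS lines held 61.7 to 67.8 CPM, with a log2 fold change of 1.20 (SE 0.28, edgeR adjusted p = 0.0233). The third was Myl12a, a non-muscle regulatory light chain outside the naming rule and chosen after its value was seen, at 0.61 (edgeR adjusted p = 0.0178). Myl6b and Myh14 had log2 fold changes of -0.86 and -0.74 and were not called (edgeR adjusted p = 0.0523 and 0.0889).

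Of 9 genes that set light chain phosphorylation, 1 was called. Mylk, the myosin light chain kinase, was at 1.12 to 1.37 CPM in TPS lines and 0.176 to 0.326 CPM in EPS lines, with a log2 fold change of 2.22 (SE 0.41, edgeR adjusted p = 0.0106). It reached the filter's cutoff in 3 TPS lines and 1 EPS line, and so passed through its TPS lines. Ppp1r14a (CPI-17, a phosphatase inhibitor), the phosphatase subunit Ppp1r12b and the kinase Rock2 had log2 fold changes of 1.02, 0.89 and 0.40 and were not called (edgeR adjusted p-values 0.0838 to 0.0871).

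Of 9 markers of differentiated smooth muscle, 8 were tested, 4 were higher and 1 was lower. Besides Myh11, these were Lmod1, a leiomodin that seeds actin filaments, at 2.99 (edgeR adjusted p = 0.00966), Synpo2 at 3.14 (edgeR adjusted p = 0.0043) and the actin-binding caldesmon Cald1 at 2.18 (edgeR adjusted p = 0.00188). Cald1 was even among the TPS lines, at 308, 300 and 290 CPM, against 50.3 to 88.6 CPM in the EPS lines, and Lmod1 was highest in TPS line 2, at 9.40 CPM. Synpo2 was lowest in TPS line 2, at 5.69, 2.95 and 4.54 CPM.

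Casq2, a calcium-binding protein of the sarcoplasmic reticulum, was lower in TPS lines, with 0.254 to 0.311 CPM against 1.24 to 8.33 CPM (edgeR adjusted p = 0.00932). The intermediate filament gene Des was at 6.24, 87.5 and 17.8 CPM in TPS lines 1, 2 and 3 and at 6.46 to 15.6 CPM in EPS lines, and was not called (log2 fold change 1.96, edgeR adjusted p = 0.148). Smtn had a log2 fold change of -0.09. Myocd, the smooth-muscle-specific coactivator of SRF, was listed at 0 in all EPS lines and at 0.025, 0.673 and 0.0952 CPM in TPS lines 1, 2 and 3.

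Of SRF and its 3 coactivators, Myocd was too low to be tested and the other 3 genes were tested and not called. Srf was at 45.5 to 68.1 CPM in TPS lines and 43.7 to 51.9 CPM in EPS lines, and Mrtfa and Mrtfb had log2 fold changes of 0.47 and 0.40 (edgeR adjusted p = 0.0796 and 0.162). Of these 3 genes, 1 (Mrtfa) had an unadjusted edgeR p-value under 0.05, and DESeq2 called 0.

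Of 12 linker and adhesion genes, 6 were higher and 2 lower. The focal adhesion genes Fhl2, Zyx and Pdlim7 had log2 fold changes of 2.75, 1.66 and 1.39 (edgeR adjusted p = 0.00514, 0.00455 and 0.0231), and Pdlim7 was highest in TPS line 2, at 81.4 CPM against 32.1 and 54.5 CPM in lines 1 and 3. The LIM-domain gene Fhl1 was lower at -1.08 (edgeR adjusted p = 0.00464). Csrp2, also a LIM-domain gene and named after its value was seen, was lower at -0.68 (edgeR adjusted p = 0.0349).

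Of 7 genes known to respond to TGF-beta or YAP, or to carry the TGF-beta signal, 6 were higher. The ligand Tgfb2 was at 2.87, 29.0 and 4.00 CPM in TPS lines 1, 2 and 3 and at 0.424 to 1.18 CPM in EPS lines, with a log2 fold change of 3.78 (SE 0.96, edgeR adjusted p = 0.0302). It was the only 1 of the 7 genes that was highest in TPS line 2, while the other 6 were highest in TPS line 1. The matrix gene Thbs1 and the receptor gene Tgfbr2 had log2 fold changes of 3.26 and 2.00 (edgeR adjusted p = 0.0124 and 0.0236) and were among these 6. Thbs1 was at 2230, 780 and 1700 CPM in TPS lines 1, 2 and 3.

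**Figure D4:**
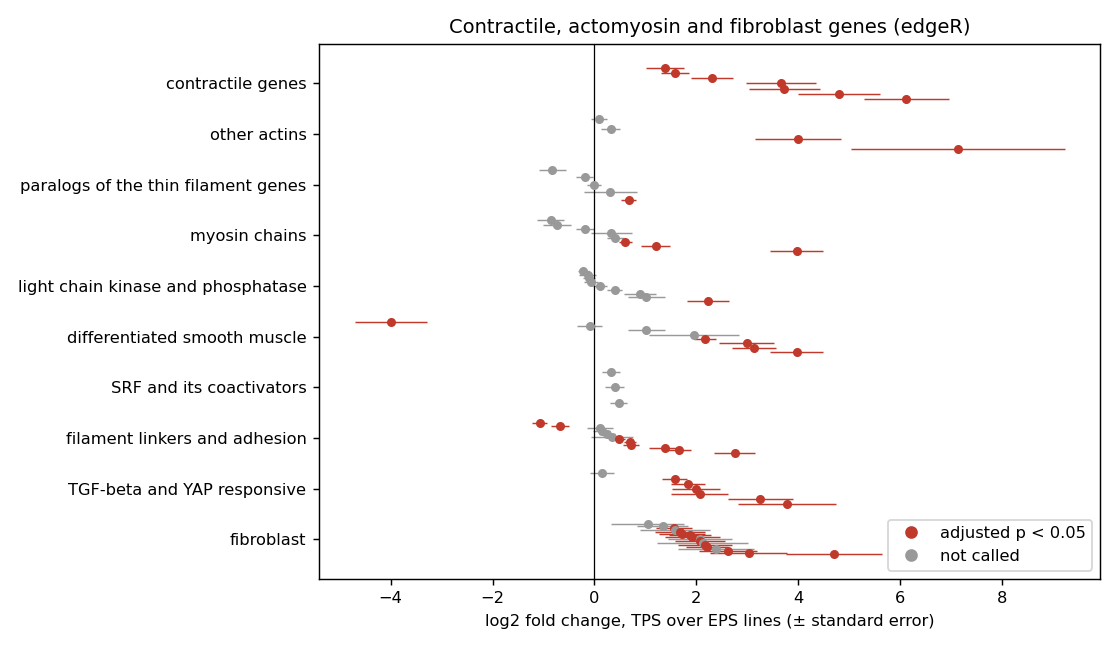
The log2 fold change (TPS over EPS lines, points, with standard errors as bars) of the contractile genes, the groups of other contractile machinery genes and the fibroblast list, with genes called by edgeR in red and others in grey. The 7 tested contractile genes and all 17 fibroblast genes lie above 0, while most paralogs and most genes of the phosphorylation group lie near 0.

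Markers of other cell types were read beside the members. The 5 simple epithelium and trophectoderm genes summed to 16.0, 478 and 71.2 CPM in TPS lines 1, 2 and 3, in the same order of lines as most contractile genes, while EPS lines held 16.2 to 39.3 CPM. This order is that of the keratins. In the TPS lines Krt8 was at 4.84, 243 and 32.7 CPM and Krt18 at 8.76, 198 and 26.5 CPM. Of these 5 genes 4 were tested and 1, Cdx2, was called higher, having reached the filter's cutoff in 3 TPS lines and 1 EPS line. Cdx2 was at 0.674, 3.65 and 9.37 CPM in TPS lines 1, 2 and 3, highest in line 3. Elf5, a defining gene of trophoblast, was at 0.599, 0.388 and 0.222 CPM, highest in line 1, and under 1 CPM in every line. The 6 primitive endoderm genes summed to 43.0 to 62.9 CPM in TPS lines and 15.9 to 22.1 CPM in EPS lines, and 3 were called higher. Their sum was lowest in TPS line 2 because of Dab2 (51.4, 18.8 and 31.1 CPM in TPS lines 1, 2 and 3), while 4 of the 6 (Gata4, Gata6, Sox17 and Foxa2) were highest in TPS line 2, as the contractile genes were. The 6 skeletal muscle genes summed to 6.14 to 7.11 CPM and 0.313 to 1.18 CPM, with 4 of 6 under 1 CPM in all lines, and 1 was called higher. The 6 cardiac genes summed to 11.1 to 15.3 CPM and 3.88 to 6.98 CPM, with 3 called higher, of which Tnnt2 also passed the filter through its TPS lines alone. The 4 endothelial genes summed to at most 122 CPM in TPS lines and 118 CPM in EPS lines, with 1 called higher and 1 lower. The part of these cell types in the contractile genes was not tested.

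Over the 9729 genes with a mean of at least 10 CPM that are no member, those with the profile most like Acta2 over the 6 lines were AC127331.3, Gm5301, BC080695, Gm13043 and Gm13057. Their root mean square differences from Acta2 were 0.639 to 0.851 on the log2(CPM + 1) scale, after each gene's mean over the 6 lines was subtracted. The measure thus compares the pattern over lines and not the mean level. The added 1 flattens differences between lines near 0 CPM, so the measure still depends on level there. The first 2 are processed pseudogenes in the annotation. All 5 were at most 0.114 CPM in EPS lines, where Acta2 was at 2.28 to 11.4 CPM, and were highest in TPS line 2, where Gm5301 stood at 151 CPM. Reads of such genes may be shared with copies elsewhere, which was not tested. For Tagln, whose level is near 0 on this scale, the same measure, with means subtracted, returned genes that differed little between lines. They were Bcor, Pcbp4, Ece1, Tbrg1 and Smad5, at 0.0704 to 0.0876, and their levels were far above that of Tagln.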

How the data were processed

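Per the labels, mRNA was captured on oligo(dT) beads, randomly primed and read from both ends over 100 bases. The authors trimmed reads (fastp 0.19.7), mapped them to GRCm38.p6 (STAR 2.7.3a, versions from the submitters' processing notes) and deposited raw read counts per gene. The counter, annotation, strand setting and handling of multiply mapped reads are not given in the sources used here. Library totals were 13676051 to 21821707 counts.

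Identifiers were matched to GENCODE M21 after the version was removed (55141 of 55401). Technical replicates were summed per line. Lines were compared with edgeR 4.0.16 in R 4.3.3 (quasi-likelihood test, TMM factors, filterByExpr with 10 counts and 15 in total, Benjamini-Hochberg adjustment over 17468 genes, threshold 0.05), and adjusted p-values in the text come from it unless another tool is named. The standard error is the log2 fold change divided by the square root of F. CPM values are counts over the library total times its TMM factor. DESeq2 1.42.0 and limma 3.58.1 were alternatives, besides other scalings, filters, replicate units, a replicate block, a fibroblast covariate and leaving out each line. On data simulated from these lines, 187 of 199 genes changed 4-fold were called among 17186 tested, and 5 unchanged genes were called. Transcripts were compared with blastn 2.17.0. Summed counts were compared by exact binomial intervals, which cover counting error only, since reads were not tagged by molecule.

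The members, the lists and the naming rule were chosen with earlier results of these data known. Named were all members, up to 4 tested genes with the largest absolute log2 fold change in each group of the list of 55 genes, every differentiated smooth muscle marker, the 3 fibroblast genes with the highest mean CPM, and the 5 genes most like Acta2 and most like Tagln. The values of 1 gene that this rule names are left out. Promoter sequences come from RefSeq.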

Additional observations from a re-analysis of the deposited data

How the results depend on the processing

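The 7 tested contractile genes kept a positive log2 fold change in the 18 alternatives that refitted it (the stricter threshold does not). Among these genes Actg2 had to differ, since it passed the filter on low counts through its TPS lines alone. The number called was 7 with DESeq2, 6 with limma-voom, 6 with the line number as a replicate block, 6 to 7 when 1 line was left out, 4 at an adjusted p-value under 0.01 and 0 with the fibroblast covariate. Cnn2 lost its call in 8 of these 18 and at the stricter threshold. Same-numbered lines correlated at 0.024, -0.116 and 0.0423 in their deviations from the group means, and differently numbered lines at -0.244 to 0.231. With 3 lines in each group, these values cannot decide whether the numbers pair the lines. The replicate block cost Cnn2 its call (edgeR adjusted p = 0.0845).

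For the list of 55 genes, TGF-beta and YAP genes included, 22 were called higher. This became 8 under the 0.01 threshold, 1 with the covariate and 12 to 19 without 1 line. The 3 called lower became 5 with DESeq2, 5 without a filter, 7 with 12 separate libraries, 0 with the covariate and 2 to 4 without 1 line. For the fibroblast list, 11 became 4 with the replicate block, 0 under the 0.01 threshold, 0 with the covariate made from this list and 3 to 12 without 1 line. Over all genes, 2509 higher became 4067 with 12 separate libraries, 873 under 0.01, 104 with the covariate and 1617 to 2234 without 1 line, and 1714 with the replicate block. The 1282 lower became 750 without composition factors, 3610 with 12 separate libraries, 721 with the replicate block, 258 under 0.01, 18 with the covariate and 493 to 1047 without 1 line. The share of calls that were higher was 66.2%, and 79.9% without composition factors, which moved the median of all genes to 0.14. The summed contractile level in EPS lines was 35.3 CPM per kilobase of exon and 48.3 with the longest transcript. The causes of these changes were not tested. With 4 EPS counts each, the depth limits Actg2 and Tagln.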
